A study of Homo sapiens with 6 samples.

Results

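Glycosaminoglycan chains are long sulfated sugar polymers that are built on serine residues of proteoglycan core proteins in the Golgi. Xylosyltransferases add the first sugar, a linker is then completed by galactosyl- and glucuronosyltransferases, and the chain is extended either as heparan sulfate, by exostosins, or as chondroitin sulfate, by chondroitin synthases and polymerizing factors. In myeloid cells the main carrier of such chains is serglycin, a secretory granule proteoglycan whose chains hold positively charged proteases and chemokines.

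The transcripts described here are 10 genes of this pathway, found by gene symbol in a table of 34114 genes: XYLT1, XYLT2, B4GALT7, EXT1, EXT2, CSGALNACT1, CHSY1, CHPF, CHST11 and SRGN. XYLT1 was chosen by its measured difference between NCAM1 knockdown and control libraries, so its change in that comparison is a description here, with no test. The other 9 were taken by their role in the pathway, with earlier results of these data known. All 10 had a mean of at least 10 normalized read counts and so passed the filter on low values, which left 19575 genes.

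Messenger RNA was sequenced from 3 established human acute myeloid leukemia lines, MOLM-14, NOMO-1 and SKM-1, each transfected with a short hairpin RNA (shRNA) against NCAM1, the adhesion molecule also called CD56, or with a scrambled shRNA, and sampled at 72 h. MOLM-14 and NOMO-1 carry a KMT2A-MLLT3 fusion, and SKM-1 came from a leukemia that followed myelodysplastic syndrome. There was 1 library per line and shRNA, so 3 knockdown and 3 control libraries, with 41916991 to 47688779 reads assigned to genes.

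The leukocyte and myeloid markers PTPRC, CD33, SPI1 and CSF1R were read in all 6 libraries, whereas CD68 and CD14 were near 0 (at most 10.4 and 27.4 normalized counts). NCAM1 itself was 3.17-fold lower in the knockdown library of MOLM-14, 3.73-fold in NOMO-1 and 124-fold in SKM-1. The SKM-1 pair stood apart from the others. Of all tested genes, 16.5% were at least 2-fold lower and 15.7% at least 2-fold higher in its knockdown library, against 4.03% and 3.56% in MOLM-14 and 7.42% and 4.06% in NOMO-1. The summed counts of 10 myeloid markers were 72975 in the knockdown library and 765749 in the control library of SKM-1, of which MPO (myeloperoxidase) made up 6166 and 728824. They were 35947 and 41841 in MOLM-14 and 59850.4 and 107452 in NOMO-1, knockdown first. Markers of other cells were also read. The summed T and NK cell markers were 1026 and 1265 in MOLM-14, 4162 and 5396 in NOMO-1, and 768 and 1952 in SKM-1, knockdown first. B cell markers summed to 115 and 106, 2269 and 552, and 119 and 565 in the same lines, and epithelial markers to 621 and 355, 3546 and 2586, and 1209 and 549.7, while erythroid and endothelial sums stayed at or below 33.4 and 75.8 in every library. Single genes made up most of some sums. NKG7 had 1002 and 1242 counts in MOLM-14 and 720 and 1946 in SKM-1, and CD3D had 2961 and 3789 in NOMO-1. MS4A1 had 1988 in the NOMO-1 knockdown library, KRT8 had 2961 and 1913 in NOMO-1, and EPCAM had 1203 and 549 in SKM-1. The part of these differences in the results below was not tested.

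The promoters of the pair of xylosyltransferase genes, which had unlike changes, and of CHSY1 and CHST11, which had lower counts in the knockdown library of every line, are shown with their GC boxes in capitals. EXT2, which was also lower in every line, is not shown. The GC box (GGGCGG on either strand) is a sequence bound by SP1-type factors. Each stretch runs 5′ to 3′ from 250 bases before to 50 bases after the gene start, from RefSeq on GRCh38.p14, which is not the hg19 build of the counts.
XYLT1, chr16:17470911-17471210, - strand: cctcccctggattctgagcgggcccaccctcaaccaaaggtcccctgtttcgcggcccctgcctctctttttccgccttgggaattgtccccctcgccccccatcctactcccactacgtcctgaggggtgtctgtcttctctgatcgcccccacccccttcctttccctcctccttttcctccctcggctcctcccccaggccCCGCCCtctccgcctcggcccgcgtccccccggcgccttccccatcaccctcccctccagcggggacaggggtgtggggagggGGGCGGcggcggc
XYLT2, chr17:50345876-50346175, + strand: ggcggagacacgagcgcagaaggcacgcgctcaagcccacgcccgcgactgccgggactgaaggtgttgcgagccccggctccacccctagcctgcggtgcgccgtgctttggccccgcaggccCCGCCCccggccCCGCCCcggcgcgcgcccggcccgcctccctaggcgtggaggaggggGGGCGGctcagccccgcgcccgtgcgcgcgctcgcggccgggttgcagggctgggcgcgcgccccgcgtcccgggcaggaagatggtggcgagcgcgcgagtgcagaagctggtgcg
CHSY1, chr15:101251999-101252298, - strand: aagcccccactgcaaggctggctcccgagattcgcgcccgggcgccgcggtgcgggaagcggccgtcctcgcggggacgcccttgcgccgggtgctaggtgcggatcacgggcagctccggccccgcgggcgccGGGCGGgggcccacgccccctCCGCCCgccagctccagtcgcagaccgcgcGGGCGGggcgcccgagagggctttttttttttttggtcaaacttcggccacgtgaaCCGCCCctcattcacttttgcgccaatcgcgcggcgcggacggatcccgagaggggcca
CHST11, chr12:104456698-104456997, + strand: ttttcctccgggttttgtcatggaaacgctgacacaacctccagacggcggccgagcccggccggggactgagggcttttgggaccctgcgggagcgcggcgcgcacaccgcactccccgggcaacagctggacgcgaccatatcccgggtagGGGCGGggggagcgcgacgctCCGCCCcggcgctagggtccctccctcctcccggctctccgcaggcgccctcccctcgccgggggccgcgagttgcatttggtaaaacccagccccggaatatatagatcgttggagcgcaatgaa

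XYLT1 and CHST11 each held 2 GC boxes, XYLT2 held 3 and CHSY1 held 4, while 45.0% of all 35116 promoters in the table held at least 1. GC content was 70.0% for XYLT1, 79.3% for XYLT2, 73.3% for CHSY1 and 68.3% for CHST11, against a median of 58.7% over all promoters. The MYC-type E-box CACGTG occurred once, in CHSY1, and is present in 7.26% of all promoters. TGACTCA, the AP-1 site, and TATAAA, the TATA box, were in none of the 4 sequences and in 4.95% and 11.5% of all promoters. GCGTGGGCG, the EGR site, was in none of them and in 0.794% of all. Both strands were searched, and matches may overlap. A table entry was found for 7 of the 10 genes. Among those not shown, an entry of EXT2 held a TATA box and no GC box, at 56.3% GC. The other entries of EXT2 held 2 GC boxes each and no TATA box.

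Levels were first set in order within the libraries, as normalized counts per kilobase of merged exons. SRGN was far above the enzymes, at 28818 ± 12819 per kilobase (SD, n = 6 libraries over lines and shRNAs). It ranked between 67 and 159 of the 18979 tested genes with a known length. CHST11, the sulfotransferase that places sulfate on the chondroitin backbone, followed at 1348 ± 731, and CHSY1, a chondroitin synthase, at 1125 ± 327. EXT2, a subunit of the heparan polymerase, was at 492 ± 117, B4GALT7, which adds the first galactose of the linker, at 409.98 ± 89.4, XYLT2 at 407 ± 156, XYLT1 at 332 ± 205 and CHPF, the chondroitin polymerizing factor, at 217 ± 137. CSGALNACT1, which adds the first N-acetylgalactosamine and so commits a chain to chondroitin, was at 17.0 ± 12.7, and EXT1, the partner of EXT2 in the heparan polymerase, at 10.4 ± 6.02. Means of CHST11 and CHSY1, of EXT2, B4GALT7, XYLT2, XYLT1 and CHPF, and of CSGALNACT1 and EXT1 lay within the larger SD of their neighbour in this order. The gaps from SRGN to CHST11, from CHSY1 to EXT2 and from CHPF to CSGALNACT1 were wider than the SD of either gene. The polymerase partners EXT2 and EXT1 had levels per kilobase of 354 to 675 and 3.91 to 18.8, with no overlap between the genes.

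**Figure D1:**
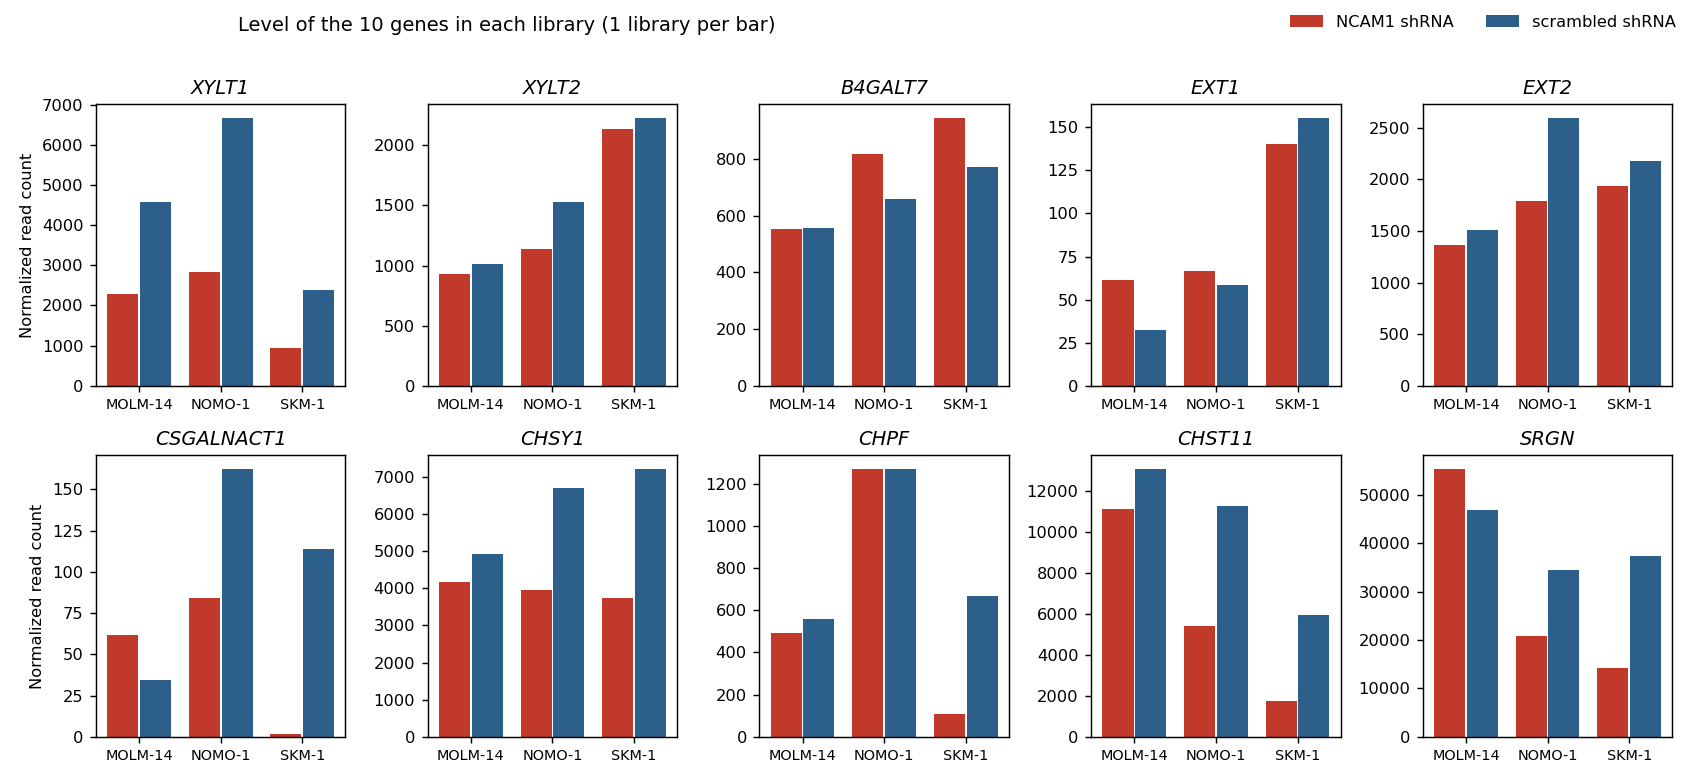
Normalized read count of each gene in each library, with a y axis of its own per gene that starts at 0; each bar is 1 library, with the NCAM1 shRNA library to the left of the scrambled shRNA library of the same line. XYLT1, CHSY1 and CHST11 had the lower bar under the NCAM1 shRNA in all 3 lines, while SRGN had 55369 counts under it in MOLM-14 against 46897 under the scrambled shRNA.

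Both xylosyltransferases, which start the chains, were read in every library. XYLT1 (ENSG00000103489) had 2290.3 (MOLM-14), 2843 (NOMO-1) and 933 (SKM-1) normalized counts under the NCAM1 shRNA, against 4569, 6669 and 2374 under the scrambled shRNA. Every knockdown library was below the control library of its own line, but the NOMO-1 knockdown library was above the SKM-1 control. The ratio of knockdown over control was 0.501 for MOLM-14 (exact conditional 95% interval 0.476 to 0.528), 0.426 for NOMO-1 (0.409 to 0.445) and 0.393 for SKM-1 (0.365 to 0.423). Such an interval reflects the reads counted and no variation between cultures. Over the 3 lines the log2 change, on the log2(normalized count + 1) scale, was -1.19 ± 0.18 (SD, n = 3 lines).

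XYLT2 (ENSG00000015532), the second xylosyltransferase, had 926 (MOLM-14), 1135 (NOMO-1) and 2136 (SKM-1) counts under the NCAM1 shRNA, against 1010.3, 1527 and 2228 under the scrambled shRNA. The ratios were 0.916 (0.834 to 1.006), 0.743 (0.690 to 0.801) and 0.959 (0.904 to 1.017), so that counting error alone covers a ratio of 1 in MOLM-14 and SKM-1. Its mean log2 change was -0.20 ± 0.20 (SD over 3 lines; limma, adjusted p = 0.793).

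The balance of the pair on the per-kilobase scale differed between the libraries of each line. XYLT1 made up 47.8% of the summed XYLT1 and XYLT2 level in the MOLM-14 knockdown library and 62.6% in its control, 48.2% and 61.8% in NOMO-1, and 13.9% and 28.3% in SKM-1, knockdown first. In MOLM-14 and NOMO-1 XYLT1 was the more abundant enzyme transcript in the control library and the less abundant in the knockdown library, whereas in SKM-1 XYLT2 was the more abundant in both. The summed level was 484 in the knockdown library against 737 in the control for MOLM-14, 597 against 1091 for NOMO-1, and 677 against 848 for SKM-1. With the length of the longest transcript in place of merged exons the XYLT1 to XYLT2 ratio was 0.877 in the knockdown and 1.60 in the control library of MOLM-14, 0.888 and 1.55 in NOMO-1, and 0.155 and 0.378 in SKM-1.

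**Figure D2:**
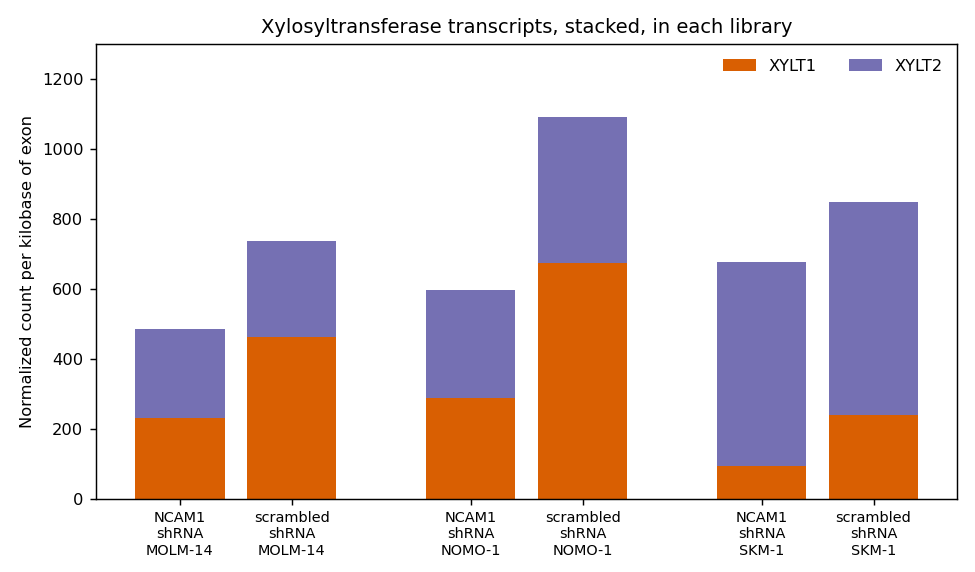
Stacked levels of XYLT1 and XYLT2 in normalized counts per kilobase of exon, 1 bar per library, with the NCAM1 shRNA library to the left of the scrambled shRNA library of each line. The XYLT1 part is the smaller share of the bar in each knockdown library and in both SKM-1 libraries, where it was 13.9% and 28.3%.

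None of the linker and heparan genes passed the test. B4GALT7 (ENSG00000027847) had 551 (MOLM-14), 817 (NOMO-1) and 945 (SKM-1) counts under the NCAM1 shRNA, against 555, 657 and 772 under the scrambled shRNA. Its ratios were 0.992 (0.876 to 1.124), 1.24 (1.124 to 1.37) and 1.22 (1.11 to 1.35), with a mean log2 change of 0.20 ± 0.18 (SD over 3 lines; limma, adjusted p = 0.805). In MOLM-14 the direction turned with total-count scaling, at a ratio of 1.02.

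EXT2 (ENSG00000151348) had 1364 (MOLM-14), 1787 (NOMO-1) and 1934 (SKM-1) counts under the NCAM1 shRNA, against 1508, 2598 and 2176 under the scrambled shRNA. It was the lower in each line, most in NOMO-1, where the ratio was 0.688 (0.649 to 0.729). The mean log2 change was -0.28 ± 0.22 (SD over 3 lines; limma, adjusted p = 0.779). EXT1 (ENSG00000182197) had 61.6 (MOLM-14), 66.6 (NOMO-1) and 140.5 (SKM-1) counts under the NCAM1 shRNA, against 32.3, 58.6 and 155 under the scrambled shRNA. The MOLM-14 ratio of 1.90 had an interval of 1.201 to 3.08, and those of NOMO-1 and SKM-1 included 1. The mean log2 change was 0.32 ± 0.54 (SD over 3 lines; limma, adjusted p = 0.819).

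CHSY1, CHST11, CHPF and CSGALNACT1, the chondroitin genes of the set, had larger mean changes than its linker and heparan genes. None passed after adjustment, and the means of CHPF and CSGALNACT1 came mainly from SKM-1. Outside the set, chondroitin chain homologs had a median log2 change of 0.36 and heparan modification genes one of -0.22. CHSY1 (ENSG00000131873) had 4175 (MOLM-14), 3958 (NOMO-1) and 3739.5 (SKM-1) counts under the NCAM1 shRNA, against 4925, 6695 and 7215 under the scrambled shRNA. All 3 knockdown libraries lay below all 3 control libraries. How many of all tested genes have this order was not counted, so nothing is read from it. Ratios were 0.848 (0.812 to 0.885), 0.591 (0.569 to 0.614) and 0.518 (0.499 to 0.539). The mean log2 change was -0.65 ± 0.37 (SD over the lines), with a limma p of 0.0257 and an adjusted p of 0.779.

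CHST11 (ENSG00000171310) had 11119.8 (MOLM-14), 5412 (NOMO-1) and 1734 (SKM-1) counts under the NCAM1 shRNA, against 13072, 11266 and 5952 under the scrambled shRNA. Each knockdown library was below the control of its line, although the MOLM-14 knockdown library was above the SKM-1 control. The ratio was 0.851 for MOLM-14 (0.829 to 0.873), 0.480 for NOMO-1 (0.466 to 0.496) and 0.291 for SKM-1 (0.277 to 0.307). The mean log2 change was -1.02 ± 0.77 (SD over the lines), with a limma p of 0.0263 and an adjusted p of 0.779.

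CHPF and CSGALNACT1 differed mainly in SKM-1. CHPF (ENSG00000123989) had 494 (MOLM-14), 1271 (NOMO-1) and 108 (SKM-1) counts under the NCAM1 shRNA, against 559.8, 1269 and 668 under the scrambled shRNA. In SKM-1 this was a 6.16-fold difference, with a ratio of 0.162 (0.132 to 0.198), while the intervals of MOLM-14 and NOMO-1 included 1. The mean log2 change was -0.93 ± 1.46 (SD over 3 lines; limma, adjusted p = 0.779), and -0.089 over MOLM-14 and NOMO-1 alone. A stretch of 125 bases of a CHPF exon overlaps the opposite-strand gene TMEM198 in GENCODE, which had 26.6 to 139 counts, and whether counting used strand is not known from the sources.

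CSGALNACT1 (ENSG00000147408) had 61.6 (MOLM-14), 83.9 (NOMO-1) and 1.84 (SKM-1) counts under the NCAM1 shRNA, against 34.6, 162 and 114 under the scrambled shRNA. The SKM-1 values rest on 2 and 112 reads, knockdown first, a ratio of 0.0161 (0.00193 to 0.0597). The MOLM-14 ratio of 1.78 (1.13 to 2.85) and the NOMO-1 ratio of 0.517 (0.397 to 0.669) lay on opposite sides of 1. Its mean log2 change was -1.82 ± 3.17 (SD over 3 lines; limma, adjusted p = 0.779) and -0.065 over MOLM-14 and NOMO-1 alone.

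SRGN (ENSG00000122862), the core protein, had 55369 (MOLM-14), 20754 (NOMO-1) and 14158 (SKM-1) counts under the NCAM1 shRNA, against 46897, 34440.5 and 37256 under the scrambled shRNA. The knockdown library was the higher in MOLM-14 and the lower in NOMO-1 and SKM-1, so the groups overlapped. Ratios were 1.18 (1.166 to 1.196), 0.603 (0.593 to 0.613) and 0.380 (0.373 to 0.387), with a mean log2 change of -0.63 ± 0.82 (SD over 3 lines; limma, adjusted p = 0.779). In bulk libraries fewer cells of a kind and less RNA per cell cannot be told apart.

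**Figure D3:**
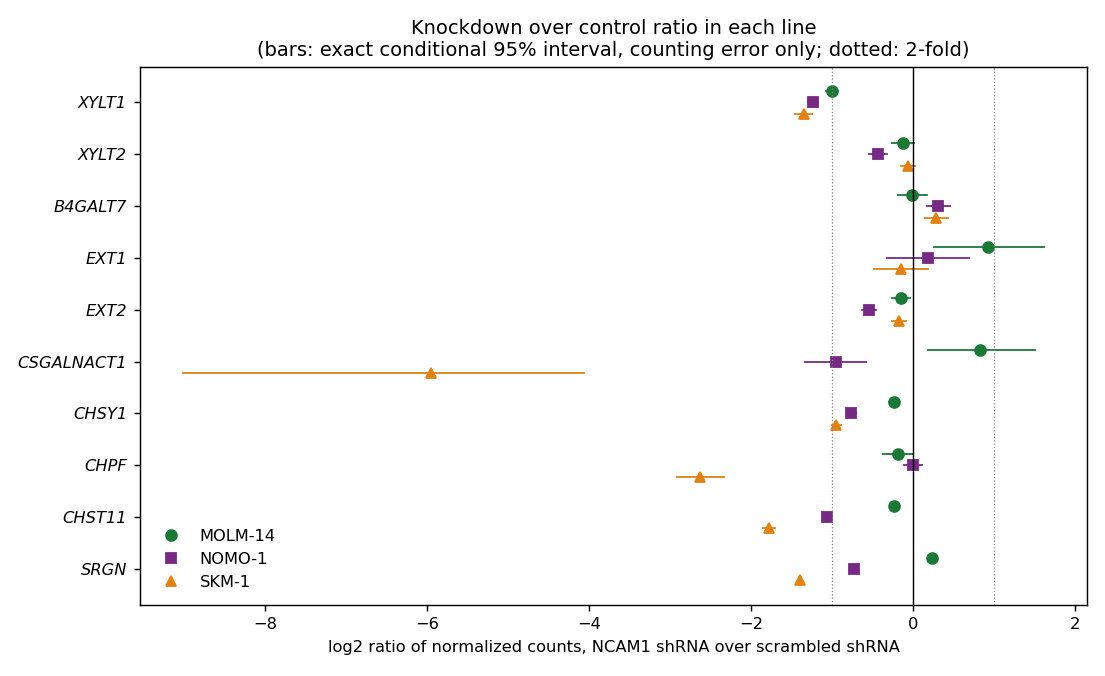
Log2 ratio of normalized counts, NCAM1 shRNA over scrambled shRNA, for each gene in MOLM-14 (circles), NOMO-1 (squares) and SKM-1 (triangles), with exact conditional 95% intervals for counting error; the dotted lines mark 2-fold. XYLT1 lies near or beyond the 2-fold line in all 3 lines, at ratios of 0.501, 0.426 and 0.393, while the SKM-1 points of CSGALNACT1, CHPF, CHST11 and SRGN lie to the left of the other lines.

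Of the 9 genes other than XYLT1, 4 had lower counts in the knockdown library of all 3 lines (XYLT2, EXT2, CHSY1 and CHST11), 5 were mixed, and none was higher in all 3. Among all tested genes 15.9% were lower and 14.6% higher in all 3 lines. The genes were chosen with results of these data known, so nothing is read from that count. In limma with the line as a block 0 of the 9 had an adjusted p under 0.05 and 2 had an unadjusted p under 0.05, CHSY1 and CHST11, both lower (2.89% of all tested genes). The same numbers came from edgeR and DESeq2 on recovered reads. Over all tested genes limma and edgeR called 0 (0% of 19575), with 877 (4.48%) and 863 (4.41%) at an unadjusted p under 0.05. DESeq2 called 43 (0.22%). An exact sign-flip test over 3 lines cannot go below p = 0.25.

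By line, 0 of the 9 were at least 2-fold lower in the MOLM-14 knockdown library (4.03% of all tested genes). The number was 1 in NOMO-1 (7.42% of all), CHST11, and 4 in SKM-1 (16.5%), namely CSGALNACT1, CHPF, CHST11 and SRGN. None was at least 2-fold higher in any line (3.56% of all tested genes for MOLM-14, 4.06% for NOMO-1 and 15.7% for SKM-1). The median log2 change of the 9 was -0.13 for MOLM-14, -0.54 for NOMO-1 and -0.95 for SKM-1, against 0, -0.00027 and -0.012 over all tested genes. Whether the response differed between lines was not tested, since each line has 1 library per shRNA.

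The level of each gene in the lines was not used to choose the set, although earlier results of these data were known. The standard error of XYLT1 comes from the residual of the same fit, which holds the spread of its knockdown changes over the lines, so its p here is not independent of that choice. SKM-1 was compared with the mean of MOLM-14 and NOMO-1 in the same limma fit, with both libraries of a line counted and calls at an adjusted p under 0.05 and at least 2-fold. XYLT1 was lower in SKM-1, by a log2 difference of -1.33 ± 0.18 (SE, adjusted p = 0.0142), as was CHST11, at -1.59 ± 0.34 (SE, adjusted p = 0.0417). Of all tested genes 15.6% were called, 8.18% lower and 7.40% higher, and 16.6% passed at any fold. XYLT1 had 933 and 2374 counts in the SKM-1 libraries and 2290.3 to 6669 in those of MOLM-14 and NOMO-1, and the SKM-1 control was above the MOLM-14 knockdown library. CHST11 had 1734 and 5952 in SKM-1 and 5412 to 13072 in the others, which also overlap. The XYLT1 call was lost without NOMO-1 (-1.12, adjusted p = 0.132), and its adjusted p without MOLM-14 was 0.0460. The CHST11 call was lost without MOLM-14 (adjusted p = 0.094) or NOMO-1 (0.145) and with edgeR (0.059), no filter (0.0774), quantile normalization (0.0536) or eBayes without trend (0.0779).

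XYLT2 was the higher in SKM-1, by 0.95 ± 0.20 (SE, adjusted p = 0.0393), which is 1.93-fold and so short of the 2-fold rule. The adjusted p was 0.285 without MOLM-14, 0.125 without NOMO-1, 0.0622 with no filter and 0.0742 without trend. Its 2136 and 2228 counts there were above the 926 to 1527 counts of the other lines. EXT1, at 140.5 and 155 counts in SKM-1 against 32.3 to 66.6 in the others, had a log2 difference of 1.47 ± 0.38 (SE, adjusted p = 0.0622), and DESeq2 called it (adjusted p = 0.0323). The remaining 6 genes had adjusted p values of 0.147 or more, with differences of -2.05 for CSGALNACT1, -1.60 for CHPF, -0.68 for SRGN, 0.10 for CHSY1, 0.22 for EXT2 and 0.42 for B4GALT7.

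Between the KMT2A-fused lines, MOLM-14 and NOMO-1, 0 of the 10 were called, where 13.3% of all tested genes were called, 8.01% lower and 5.26% higher in MOLM-14. The smallest unadjusted limma p of the 10 was 0.0514, for EXT2. DESeq2 gave an unadjusted p of 0.0438 for EXT2 and 0.0422 for SRGN (adjusted p = 0.149 and 0.145). The difference was 0.93 ± 0.41 for SRGN (SE, adjusted p = 0.208), 0.63 ± 0.40 for CHST11 (adjusted p = 0.352) and -0.43 ± 0.21 for XYLT1 (adjusted p = 0.248). For CHPF it was -1.27 ± 0.71 (adjusted p = 0.2997), while a fit of MOLM-14 and NOMO-1 alone called it (adjusted p = 0.012). The libraries of a line are 1 line under 2 shRNAs and not separate isolates.

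**Figure D4:**
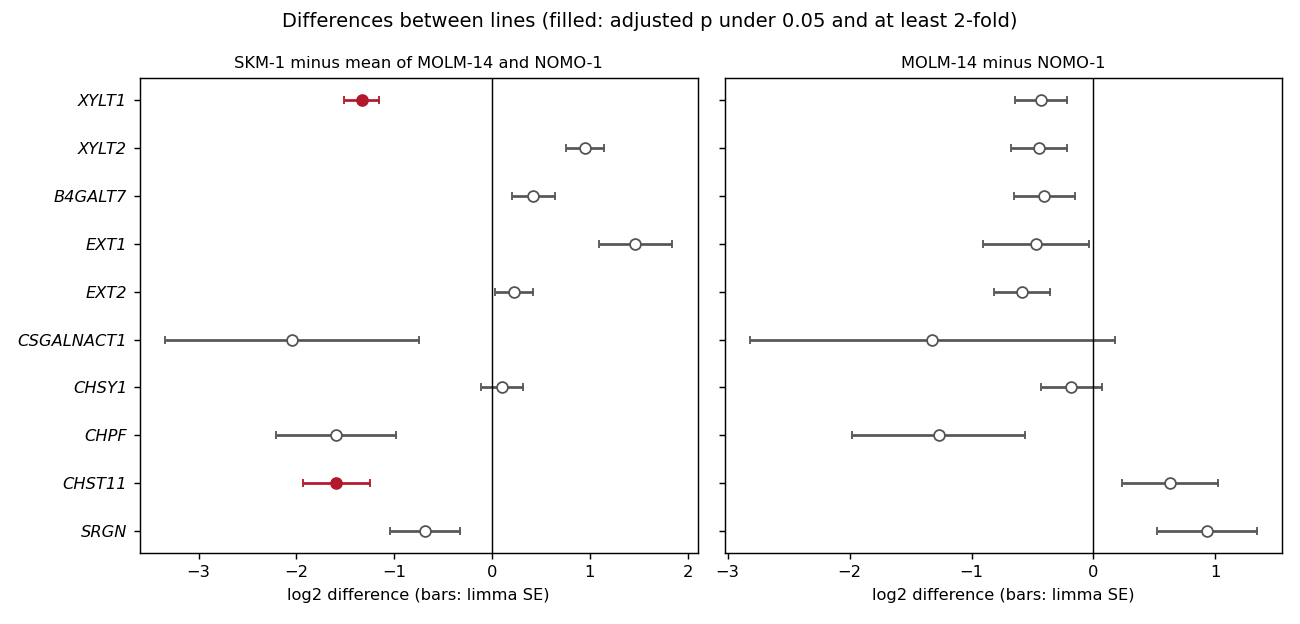
Log2 difference of each gene between lines on the log2(normalized count + 1) scale, SKM-1 minus the mean of MOLM-14 and NOMO-1 on the left and MOLM-14 minus NOMO-1 on the right, with limma standard errors from 6 libraries; filled points have an adjusted p under 0.05 and at least a 2-fold difference. XYLT1 (-1.33) and CHST11 (-1.59) are the filled points, and XYLT2 (0.95) lies on the opposite side of 0 from XYLT1 in the left panel.

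The genes whose pattern over the 6 libraries was most like that of XYLT1 were found by the root mean square difference of gene-centred log2 values, among 13393 genes with a mean of at least 50 counts. They were BNIP3L, a mitophagy receptor, at 0.247, SPATC1L at 0.271, IL1RAP, the co-receptor for interleukin-1, at 0.277, TMCC2 at 0.2797 and ERO1L (now ERO1A), an oxidase of the endoplasmic reticulum, at 0.280. The median over all these genes was 1.04. Their log2 changes ran from -0.34 to -0.97 in MOLM-14, from -0.86 to -1.77 in NOMO-1 and from -0.86 to -1.70 in SKM-1. Among the other 9 genes CHST11 was the nearest, at 0.517 and rank 189, followed by CHPF at 0.670, while XYLT2 was at 1.19 and rank 8832. XYLT1 was chosen by its knockdown change, and likeness was taken over the same 6 libraries. The lower changes of the like genes and the rank of CHST11 follow in part from that choice. Nothing is read from them.

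The wider pathway was described through 88 further genes in 8 lists by role, of which 83 were in the table and 70 passed the filter. In limma 0 of the 70 had an adjusted p under 0.05 and 8 had an unadjusted p under 0.05, against 0% and 4.48% of all tested genes. Lower counts in the knockdown library of all 3 lines were found for 18 of the 70 (25.7%, against 15.9% of all tested genes) and higher counts in all 3 for 7 (10%, against 14.6%). Their median log2 change was -0.081, against -0.0072 over all tested genes. Of the 70, 58 had over 3 reads in at least 1 library of every line, a floor chosen after seeing the data, and of these 15 were lower (25.9%, against 16.5% of all tested genes above the floor) and 7 higher (12.1%, against 15.5%). Up to 3 genes per list, by smallest p, are given next as mean log2 changes over the 3 lines with their SD. Counts per list stand against the same 15.9% lower and 14.6% higher of all tested genes, or 16.5% and 15.5% above the floor.

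Linker enzymes B3GALT6 (0.30 ± 0.51) and B3GAT3 (0.48 ± 0.61), which add the second galactose and the glucuronic acid, and the xylose kinase FAM20B (-0.24 ± 0.31) were each mixed in direction. So were the exostosin-like EXTL2 (0.24 ± 0.35) and EXTL3 (0.19 ± 0.39), of which EXTL3 starts heparan chains, and the chondroitin homologs CSGALNACT2 (-0.43 ± 0.61), CHSY3 (0.64 ± 1.17) and CHPF2 (0.36 ± 0.36).

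Among 10 tested heparan modification genes 5 were lower and 0 higher in all 3 lines, with a list median of -0.22, and 4 of the 7 above the read floor were lower. HS2ST1, which sulfates uronic acid, was at -0.92 ± 0.50 (SD over the lines), with a limma p of 0.0145 and an adjusted p of 0.779, the glucosamine sulfotransferase HS6ST2 at -0.89 ± 0.45, a mean that includes 0 against 1 read in NOMO-1, and the extracellular sulfatase SULF2 at -0.94 ± 0.995. HS2ST1 had 2539 (MOLM-14), 1493 (NOMO-1) and 1522 (SKM-1) counts under the NCAM1 shRNA, against 3599, 2561 and 4228 under the scrambled shRNA. Every knockdown library was below every control, by 2539 against 2561 at the closest. This order was not counted over all tested genes either, so nothing is read from it. Of 8 chondroitin modification genes 1 was lower in all 3 lines, CHST14, the dermatan sulfotransferase, at -0.82 ± 0.39, and the list median was 0.22. CHST12, which like CHST11 sulfates chondroitin, was at -0.89 ± 1.29, with 72.5 counts in the knockdown and 378 in the control library of SKM-1. UST, a uronyl sulfotransferase, was at 0.66 ± 0.87.

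Supply of sugar and sulfate donors had a list median of 0.27, with 3 of 9 genes higher in all 3 lines and 1 lower. UGDH, which makes UDP-glucuronic acid, was at 0.41 ± 0.12, PAPSS1, which makes the sulfate donor, at 0.39 ± 0.48, and SLC35B2, which carries that donor into the Golgi, at -0.33 ± 0.26.

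Core proteins other than SRGN had a list median of -0.49, and 7 of 20 were lower and 1 was higher in all 3 lines. Above the read floor 5 of 14 were lower and 1 was higher. The basement membrane proteoglycan HSPG2 (perlecan) had 897 (MOLM-14), 794 (NOMO-1) and 958 (SKM-1) counts under the NCAM1 shRNA, against 1310.3, 3275 and 3440.4 under the scrambled shRNA. All of its knockdown libraries were below all controls, an order that was not counted over all tested genes, so nothing is read from it. Its mean log2 change was -1.48 ± 0.81 (SD over the lines), with a limma p of 0.0088 and an adjusted p of 0.779. CSPG4, a membrane chondroitin sulfate proteoglycan, was at -1.77 ± 1.005, and AGRN (agrin), a heparan sulfate proteoglycan, at -2.20 ± 2.13. AGRN had 4653 (MOLM-14), 753 (NOMO-1) and 109 (SKM-1) counts under the NCAM1 shRNA, against 7889, 1716 and 2773 under the scrambled shRNA, and the SKM-1 pair was the farthest apart.

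Enzymes that break chains down had a list median of 0.26, with 4 of 15 lower and 3 higher in all 3 lines. HGSNAT, a lysosomal acetyltransferase of heparan breakdown, was at -0.42 ± 0.055, the lysosomal glucosaminidase NAGLU at 0.49 ± 0.34 and the sulfamidase SGSH at 1.38 ± 1.22. SGSH had 0 reads in both SKM-1 libraries.

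**Figure D5:**
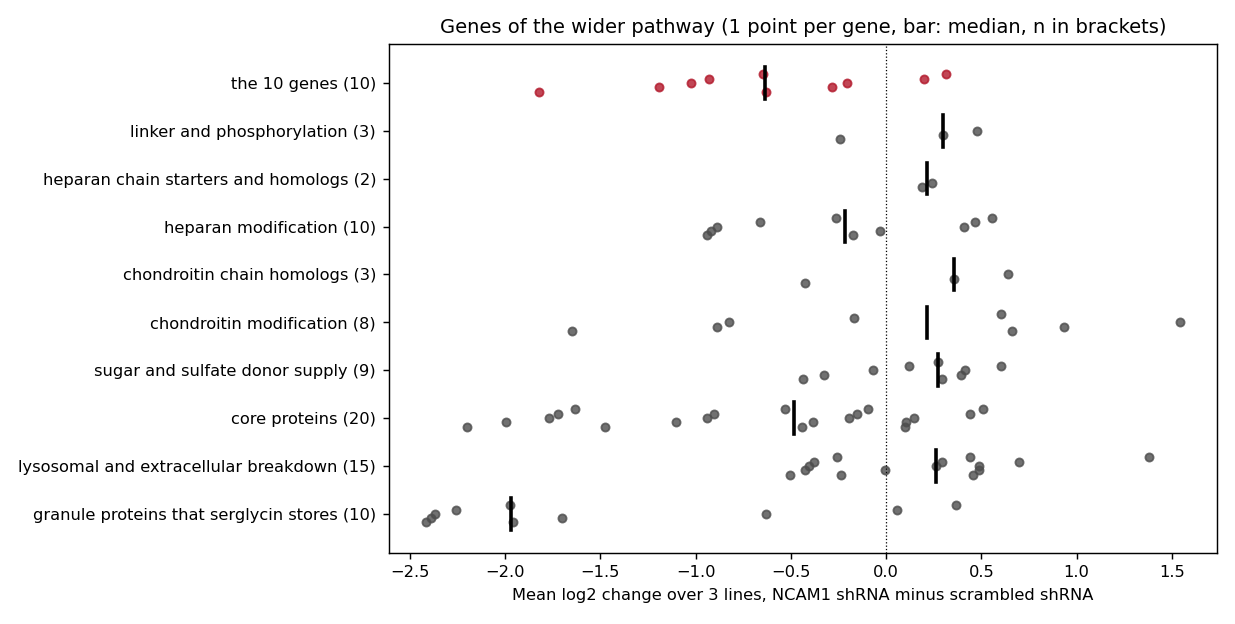
Mean log2 change over 3 lines, NCAM1 shRNA minus scrambled shRNA, for each tested gene of the pathway lists, 1 point per gene, with the list median as a bar and the number of genes in brackets. The 10 genes have a median of -0.64, and -0.63 without XYLT1, which was chosen by its change in this comparison. Core proteins have one of -0.49, and the lists for donor supply and breakdown lie near 0.27 and 0.26. Genes and lists were chosen with results of these data known, so nothing is read from the medians side by side.

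Granule proteins that serglycin is known to store differed most in SKM-1, as the median log2 change of 10 tested genes was 0.11 for MOLM-14, -1.34 for NOMO-1 and -3.37 for SKM-1. PRTN3 (proteinase 3) had 46043 (MOLM-14), 2229 (NOMO-1) and 3323 (SKM-1) counts under the NCAM1 shRNA, against 24721, 6323 and 133034 under the scrambled shRNA. AZU1 (azurocidin) had a mean log2 change of -1.70 ± 2.22. The mast cell tryptase TPSB2, a near-identical copy of TPSAB1 and so uncertain in its counts, had one of -2.41 ± 0.34. The TPSB2 mean includes 0 against 5.08 counts in SKM-1. For SRGN as for the median of this list, the knockdown value was the higher in MOLM-14 and the lower in NOMO-1 and SKM-1. The genes of the list were split. MPO, ELANE, PRTN3, CTSG and AZU1 were higher in MOLM-14, while TPSAB1, TPSB2, PRF1 and LYZ were lower and CPA3 had 0 counts. CTSG and LYZ were higher in NOMO-1, and LYZ and CPA3 in SKM-1. The likeness to SRGN sets values of the same 6 libraries side by side and was not tested.

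Between lines, 8 of the 70 wider pathway genes were called lower and 8 higher in SKM-1 than in MOLM-14 and NOMO-1 (8.18% and 7.40% of all tested genes), and 8 lower and 7 higher in MOLM-14 than in NOMO-1 (8.01% and 5.26%). The glypicans GPC4 and GPC6, heparan sulfate proteoglycans on a lipid anchor, were higher in SKM-1. GPC4 had 1721 and 3203 counts in the SKM-1 knockdown and control libraries and 1.115 to 244.5 in the others (adjusted p = 0.00316), and GPC6 had 394 and 1829 in SKM-1 and at most 1.82 in the others (adjusted p = 0.00669). SGSH, at 0 reads in SKM-1, had 13.4 to 204 counts in the others (adjusted p = 0.0086). HS6ST2 had 858 and 1139.7 counts in the MOLM-14 knockdown and control libraries, while NOMO-1 had 0 and 0.945 (adjusted p = 0.00294). The syndecan SDC4 had 379 and 548 in MOLM-14 and 0.912 and 0.945 in NOMO-1 (adjusted p = 0.00318). Of the granule list, the elastase ELANE, at 28666 and 18711.5 counts in MOLM-14 and 10.9 and 11.3 in NOMO-1, was called as well (adjusted p = 0.0255).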

How the data were processed

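Messenger RNA was read in 6 libraries (TruSeq kit, paired reads of 100 bp), grouped by the labels into NCAM1 shRNA and scrambled shRNA, with 1 library per line. Signal values deposited by the authors are reads per gene over a size factor for the library, and the deposited log2 values are a transformation of these that the labels do not name. The submitters' processing notes name STAR, DESeq2 1.12.4, HTSeq 0.6.1p1, bcl2fastq 1.8.4 and hg19. All values of a library were multiples of a common step, so that 100% came out as whole reads (tolerance 0.001), which gave the depth. Intervals and floors cover counting error only.

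Genes with a mean of at least 10 were tested with limma 3.58.1 in R 4.3.3 on log2(normalized count + 1) with the line as a block and a trend, two-sided, Benjamini-Hochberg adjusted over 19575 genes. These fold changes understate those of low genes. The line pairs the libraries, and deviations of a pair from the group means correlated at 0.850, 0.863 and 0.710 across genes in MOLM-14, NOMO-1 and SKM-1. Nothing says that the libraries of a line came from separate cultures. The p values rest on how far the knockdown changes of the lines spread around their mean. In the contrasts between lines that spread is also the error, and how far other lines of a kind would differ is not in it. edgeR 4.0.16 and DESeq2 1.42.0 on recovered reads, other pseudocounts, filters and scalings and leaving out each line were alternatives. Lengths and overlaps are from GENCODE v29 (GRCh38). Steps were tested on simulated data.

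The members and lists were chosen with earlier results of these data known. The rule named all 10 genes, up to 3 per list with a mean of at least 50 and the smallest p, up to 3 called genes per line contrast, and the 5 genes most like XYLT1.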

Additional observations from a re-analysis of the deposited data

Results flagged for a closer look

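SRGN and CSGALNACT1 stand out because their counting intervals lie on opposite sides of 1 in different lines. The SRGN ratio of knockdown over control was 1.18 for MOLM-14 but 0.603 for NOMO-1 and 0.380 for SKM-1. For CSGALNACT1 it was 1.78 (MOLM-14), 0.517 (NOMO-1) and 0.0161 (SKM-1). The difference between lines was not tested in either gene, since each line has 1 library per shRNA.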

How the results depend on the processing

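Of 356 values of the 10 genes in the 3 contrasts under alternatives, leaving aside the knockdown change of XYLT1, which has no test, 346 kept their direction and side of the threshold. Most were not called to begin with, so this number says little about the calls. XYLT1 and CHST11, called in SKM-1 against the other lines, together lost the call in 7 alternatives. The XYLT1 log2 change in the knockdown comparison ran from -1.29 to -1.11 with a line left out, and from -1.19 to -1.06 under the other alternatives. Genes called in that comparison numbered 0 in every alternative except DESeq2 (43). With no replicate block, that is without pairing by line, the count was 0 as well. The XYLT1 value was the same -1.19, as it must be with 1 library per line and shRNA. Filters and the trend setting cannot change that value either. Of the 10 genes, 2 were called in SKM-1 against the other lines, but 1 with no filter, quantile normalization, eBayes without trend or edgeR, and 0 to 1 with a line left out. Allowing any fold gave 3. Between MOLM-14 and NOMO-1 the count was 0 and became 1, CHPF, with SKM-1 left out. The lower genes of the wider pathway, 18, numbered 22 to 26 with a line left out, which then asks for fewer lines, 15 above the read floor, and 16 to 18 under the other alternatives. The EXT2 difference of SKM-1 ran from -0.071 (reversed, without MOLM-14) to 0.516, and B4GALT7 in MOLM-14 turned to a ratio of 1.02 with total-count scaling. The cause of these changes was not tested, apart from the fewer samples of a fit with a line left out. The order of levels changed without length correction, with XYLT1 at rank 4 in place of 7; with the longest transcript, an alternative chosen after seeing the data, XYLT2 and B4GALT7 exchanged ranks 5 and 6. Values of EXT1 and CSGALNACT1 are limited by depth, at 2 to 172 reads.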
